A study of Mus musculus with 17 samples.

Results

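Tissue-resident macrophages (TRMs) were compared between 2 tumor genotypes, KLG4 and KL, across every gene that reached at least 1 RPKM (reads scaled to gene length and to the reads counted in the library) in at least 2 of the 4 TRM libraries. This took in 10990 of the 13545 genes in the TRM table. The same filter gave 15088 genes over the TRM, monocyte-derived macrophage (MDM) and tumor cell tables together, and 10475 in the MDM table. The macrophages were sorted by flow cytometry from lung tumors, and their poly(A) RNA was sequenced. Both groups carried the same tumor-forming alleles, among them Lkb1 fl/fl, whose target is the gene listed as Stk11. Both received Cre adenovirus (Ad-Cre) through the nose followed by tamoxifen, and cells were taken 10 weeks after Ad-Cre. KLG4 mice had, in addition, Gpx4 m/m, a Gpx4 allele with rox sites around several exons and a CAG-driven DreERT2 cassette that Ad-Cre switches on, so that tamoxifen removes Gpx4 in cells that Ad-Cre infected. Macrophages are thus not the cells in which the allele was designed to act, although every KLG4 cell carries it. Each group had 2 TRM libraries, and litters, the number of animals per library and the TRM gate were not given in the sources used here, so p-values measure only the spread between these libraries, which may be technical. Per the study's methods, tumors were induced in adult mice matched for sex between the genotypes.

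Alveolar macrophages, the main resident macrophages of the airspace, take up surfactant and dead cells and depend on GM-CSF and PPARγ. Macrophages exposed to IL-4 or IL-13 take on a so-called alternative state through STAT6, in which genes such as Mrc1, Retnla, Ccl17 and Ccl24 are switched on. IL-10 works through STAT3 to restrain inflammatory genes. GPX4 is the selenoenzyme that reduces lipid hydroperoxides in membranes and holds back ferroptosis, an iron-dependent cell death.

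The TRM label was borne out by its markers. All but 1 of the 35 genes in the alveolar macrophage list had values and all 34 of those were tested, with Car4, a carbonic anhydrase of the alveolar macrophage surface, at 503 and 533 RPKM in KL against 606 and 554 in KLG4, and Pparg, the regulator of the resident state, at 35.3 and 38.2 RPKM in KL against 29.6 and 36.9 in KLG4. In the MDM table Pparg was at 3.99 and 11.5 RPKM in KL against 3.62 and 5.11 in KLG4, and Car4 at 47.4 and 119 RPKM in KL against 67.6 and 101 in KLG4. The libraries held 9998695 and 9140750 counted reads in KL and 26774976 and 11756217 in KLG4. Genes named mt-, those of the mitochondrial genome, took 13.2% and 9.17% of the reads in KL and 1.43% and 2.40% in KLG4, and a cluster of nuclear copies of those genes on chromosome 1 took a further 18.3% and 13.1% in KL and 1.52% and 3.38% in KLG4. RPKM values were therefore rescaled to the reads outside genes named mt-. Both KL libraries had transcripts of the Y chromosome and almost no Xist, the RNA that coats the inactive X chromosome, whereas both KLG4 libraries had the reverse (Xist: 0.296 and 0.551 RPKM in KL against 18.6 and 20.7 in KLG4. Ddx3y: 11.9 and 12.95 RPKM in KL against 0.0146 and 0 in KLG4), so sex and genotype cannot be told apart in this comparison, although the methods describe sex-matched mice. In bulk libraries fewer cells of a type and less RNA per cell also cannot be told apart.

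On the log2 scale, KLG4 TRMs differed from KL TRMs by a median of 0.24 over all genes tested. All fold changes below are fitted differences of log2(rescaled RPKM + 0.1), KLG4 minus KL, with the standard error of the limma fit, and so understate the change of genes with low values. At an adjusted p under 0.05 (limma, Benjamini-Hochberg over 10990 genes), 32 genes were higher (0.291% of those tested) and 34 were lower (0.309%). At the threshold the study used, an unadjusted p under 0.05 and a change of at least 2-fold, 922 genes were higher (8.39%) and 253 were lower (2.3%). Such genes are said below to have risen or fallen, and these shares, 8.39% and 2.3%, are the background for every count of list members that rose or fell. Both KLG4 libraries were above both KL libraries for 4772 genes (43.4%) and below them for 1592 (14.5%). The excess of increases followed the scaling: with the nuclear copies also left out of the read total, the median of all genes moved to 0.00, and 481 genes were higher (4.38%) and 401 lower (3.65%) at the same threshold. All 253 decreases were among those 401, and all 481 increases among the 922. Differences below are therefore read against the median of 0.24, and the named increases that did not hold under the second scaling are given together after the gene lists.

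Of the 66 genes with an adjusted p under 0.05, 18 were on the mitochondrial genome, 3 were its nuclear copies and 9 were on the X or Y chromosome. When autosomal genes were tested alone, none of 10273 passed, 2396 had an unadjusted p under 0.05, and the smallest adjusted p was 0.0595. That test left out 332 genes of the X or Y chromosome, 34 of the mitochondrial genome and 351 without a position in the annotation. limma-voom on the recovered reads called 754 of 10658 genes at the same level. The remaining calls included small and predicted RNAs.

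Longer genes also lay higher. Over 10624 genes with a length outside the mitochondrial genome, the log2 fold change had a Spearman rho of 0.24 with gene length, a description across genes of the same 4 libraries. The median log2 fold change went from 0.09 in the shortest quintile to 0.46 in the longest, and the share of genes that rose was 9.41% in the shortest quintile, 5.23% and 5.46% in the next, and 12.3% in the longest. The part of gene length in the results below was not tested beyond the values given with them.

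Gpx4 itself (chr10:80047166-80056439, plus strand, GRCm38) was read in every TRM library. It stood at 103 and 97.1 RPKM in KL against 54.6 and 58.4 in KLG4. Both KLG4 libraries were below both KL libraries, and the log2 fold change was -0.83 ± 0.14 (limma adjusted p = 0.0673), short of 2-fold, while with the nuclear copies left out it was -1.07 and passed the threshold of the study. Gene-level values do not show which exons the reads came from. In sorted cells of these tumors, the paper reports the Gpx4 rearrangement selectively in tumor cells. It also reports GPX4 protein lowered in tumor cells and not in immune cells. That was protein over immune cells as a whole, whereas the values here are RNA of TRMs alone. In MDMs the order was the opposite, with Gpx4 at 45.5 and 73.7 RPKM in KL against 94.04 and 98.3 in KLG4.

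Next to Gpx4, Sbno2, which encodes a transcriptional co-regulator induced through IL-10 and STAT3, rose. It read 9.35 and 15.2 RPKM in KL against 55.3 and 53.5 in KLG4, a log2 fold change of 2.18 ± 0.26 (limma adjusted p = 0.0428). Both KLG4 libraries were well above the higher KL library. Sbno2 (chr10:80056992-80105571) lies on the minus strand and ends 552 bases past the annotated end of Gpx4, so both genes converge. The library kit kept no strand, so reads of one that run into the other could not be told apart. Stk11 (chr10:80115803-80130682, plus strand), the conditional tumor suppressor of both groups, read 24.8 and 25.7 RPKM in KL against 43.1 and 40.99 in KLG4, a log2 fold change of 0.73 ± 0.15 with both KLG4 values over both KL values and under 2-fold.

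**Figure D1:**
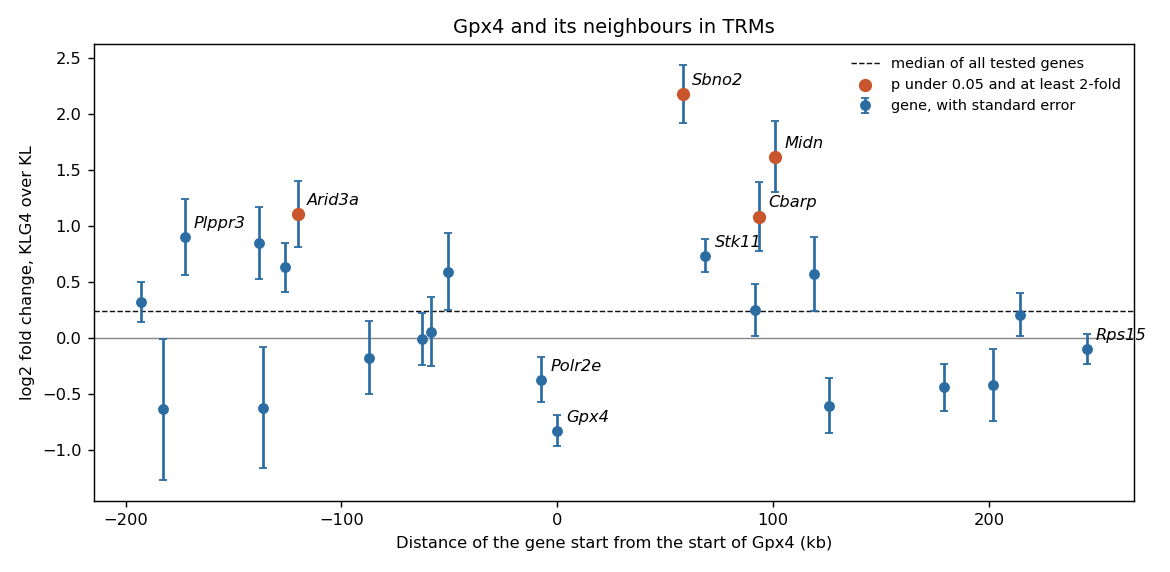
Gpx4 and the 23 other genes within 250 kb that were tested, by the distance of the gene start from the start of Gpx4 in kb (x) and the log2 fold change of KLG4 over KL in TRMs with its standard error (y). Gpx4 lay at -0.83, Sbno2 at 2.18 and Stk11 at 0.73, and the dashed line marks the median of all tested genes, 0.24.

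Of the 23 neighbours of Gpx4, 4 rose (background 8.39%) and none fell (2.3%), 2 of them also with the nuclear copies left out, and their median log2 fold change was 0.25, close to that of all genes. Besides Sbno2, the 4 were Midn, which encodes midnolin (1.66 and 2.797 in KL, 6.95 and 6.698 in KLG4, log2 fold change 1.62), Arid3a, a DNA-binding factor (2.65 and 4.24 in KL, 7.85 and 6.85 in KLG4, 1.105), and Cbarp, which overlaps the end of Stk11 (1.43 and 1.905 in KL, 3.81 and 3.42 in KLG4, 1.08). Arid3a and Cbarp did not hold 2-fold with the nuclear copies left out. Polr2e, a shared RNA polymerase subunit just upstream of Gpx4, read 17.3 and 14.7 RPKM in KL against 13.5 and 11.2 in KLG4, and Rps15, at the far end of the window, 401 and 396 RPKM in KL against 393 and 353 in KLG4.

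The gene list of alternative activation stood apart most clearly among the macrophage programs. Of 20 members tested, 11 rose (background 8.39%) and 0 fell (background 2.3%). The list median was 1.03 on the log2 scale, against 0.24 for all genes, and 0.79 against 0.00 with the nuclear copies left out, under which 7 of the 11 still rose. With each member set against the median of its own quintile of gene length, the list median was 0.86. Leaving out each library in turn gave between 8 and 13 members higher and 0 lower.

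Ccl24, which encodes eotaxin-2, a chemokine for eosinophils, was the member with the largest change. It read 1.96 and 0.558 RPKM in KL against 27.4 and 36.6 in KLG4, a log2 fold change of 4.77 ± 0.54 (limma adjusted p = 0.0406). Ccl17, a ligand of CCR4 on T cells, read 82.01 and 58.8 RPKM in KL against 238 and 527 in KLG4, a log2 fold change of 2.35 ± 0.39 (adjusted p = 0.0653). Both genes were higher in both KLG4 libraries by a wide margin, and KLG4 replicate 2 was the higher for each. Ccl22, the other ligand of CCR4, read 2.97 and 5.18 RPKM in KL against 6.81 and 14.2 in KLG4 (log2 fold change 1.30, not held at 2-fold with the nuclear copies left out).

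Mrc1, the mannose receptor CD206, read 78.6 and 108 RPKM in KL against 245 and 199 in KLG4 (log2 fold change 1.26 ± 0.21), and Mgl2, a galactose-type lectin, 3.52 and 6.44 RPKM in KL against 13.4 and 33.5 in KLG4 (2.13 ± 0.50). Retnla, which encodes RELMα, was low but higher in both KLG4 libraries (4.24 and 4.03 RPKM in KL against 8.49 and 11.95 in KLG4). Chil3, encoding the chitinase-like protein Ym1, was among the most abundant macrophage transcripts at 3401 and 3469 RPKM in KL against 7621 and 6389.7 in KLG4 (1.02 ± 0.17), though near copies of the gene could share its reads.

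Pdcd1lg2, which encodes PD-L2, a ligand of PD-1, read 0.07001 and 2.197 RPKM in KL against 5.11 and 15.5 in KLG4. Its value in KL replicate 1 came from 1 read, and KL replicates differed widely, so its log2 fold change of 3.85 ± 1.24 had a large error (limma adjusted p = 0.156). Il4ra, the receptor chain shared by IL-4 and IL-13, read 13.4 and 15.9 RPKM in KL against 26.2 and 34.8 in KLG4, and Irf4, a factor induced downstream of it, 2.003 and 2.61 RPKM in KL against 3.83 and 8.24 in KLG4. Neither reached 2-fold under the second scaling. Among members that did not pass, Stat6, the factor that carries the IL-4 signal, read 29.1 and 32.9 RPKM in KL against 43.3 and 41.7 in KLG4 (log2 fold change 0.46), Tgm2, a transglutaminase, 86.6 and 99.9 RPKM in KL against 213 and 149 in KLG4 (0.94), and Clec7a, the β-glucan receptor Dectin-1, 546 and 614 RPKM in KL against 563 and 543 in KLG4 (-0.07).

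**Figure D2:**
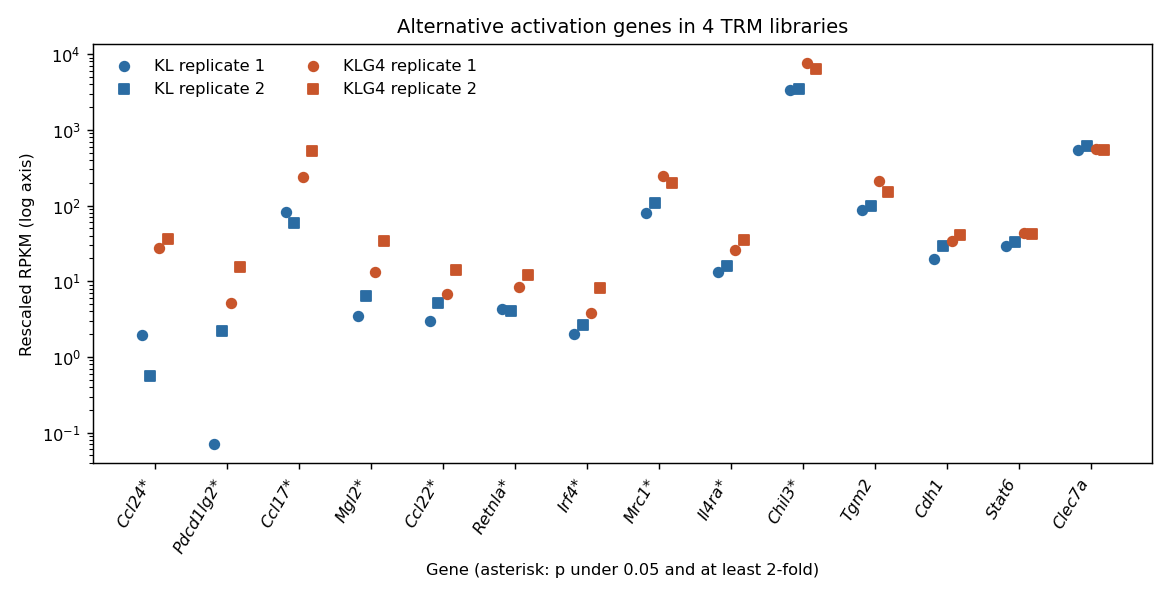
Rescaled RPKM on a log axis of 14 of the 20 alternative activation genes tested, those described in the text, ordered by fold change, with a point for each of the 4 TRM libraries (KL in blue, KLG4 in orange, circles for replicate 1 and squares for replicate 2). Asterisks mark the 10 plotted genes that rose, from Ccl24 at a log2 fold change of 4.77 to Chil3 at 1.02.

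STAT6 homodimers favor an inverted repeat with a 4-base spacer, written TTCNNNNGAA, so the reference promoters of the genes that rose were searched for it. Of the 11, 9 matched a promoter in the RefSeq table (GRCm38.p6, 250 bases before to 50 after a gene's start), and 3 of those 9 held the motif, which reads the same on both strands. Over 7589 tested genes with a promoter the share was 6.38%, and over all 32851 promoters 6.95%. These 3 promoters are shown because they held the motif, given in capitals, 5′ to 3′ on the gene's strand. Those of Ccl17, chr8:94810203-94810502 (+ strand), Retnla, chr16:48842359-48842658 (+ strand), and Pdcd1lg2, chr19:29410669-29410968 (+ strand), read as follows.
Ccl17: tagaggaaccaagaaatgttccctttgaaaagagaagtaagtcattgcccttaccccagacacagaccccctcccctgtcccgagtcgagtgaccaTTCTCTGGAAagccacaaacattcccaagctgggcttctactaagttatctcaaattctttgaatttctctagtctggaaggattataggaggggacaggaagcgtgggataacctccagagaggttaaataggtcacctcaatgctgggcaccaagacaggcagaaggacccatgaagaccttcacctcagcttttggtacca
Retnla: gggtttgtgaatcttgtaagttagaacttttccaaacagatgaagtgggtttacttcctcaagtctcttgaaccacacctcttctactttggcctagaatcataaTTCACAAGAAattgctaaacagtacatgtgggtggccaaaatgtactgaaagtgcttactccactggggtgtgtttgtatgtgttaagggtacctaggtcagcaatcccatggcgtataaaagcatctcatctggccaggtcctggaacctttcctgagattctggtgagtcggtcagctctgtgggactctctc
Pdcd1lg2: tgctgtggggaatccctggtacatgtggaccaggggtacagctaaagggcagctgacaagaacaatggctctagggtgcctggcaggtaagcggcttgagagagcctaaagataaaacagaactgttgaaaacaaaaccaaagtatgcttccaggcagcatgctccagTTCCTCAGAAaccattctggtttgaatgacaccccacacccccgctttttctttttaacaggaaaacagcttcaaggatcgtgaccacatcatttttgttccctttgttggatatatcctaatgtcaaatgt
The motif began 154, 145 and 82 bases before the start of Ccl17, Retnla and Pdcd1lg2. A match is a description of these letters and was not set against binding data. The C/EBP letters TTGCNNAA occurred in 1 of the 9 promoters and in 10.2% of those of tested genes, and the PU.1 letters GAGGAAG in 2 of the 9 and in 16.5%, both strands counted.

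In the list of the IL-10 and STAT3 pathway, 5 of 13 genes tested rose (background 8.39%) and 0 fell (2.3%), with a list median of 0.68 (0.44 with the nuclear copies left out), and 3 rose without KLG4 replicate 2. They were Sbno2, Cebpb, Etv3, Bcl3 and Il4ra, of which Il4ra did not hold under the second scaling. Sbno2 is also the neighbour of Gpx4 described above. Cebpb, Bcl3 and Il4ra are counted in other lists as well, those of alveolar macrophage identity, NF-κB feedback and alternative activation. Cebpb, a transcription factor of macrophage activation, read 15.8 and 24.7 RPKM in KL against 55.8 and 69.3 in KLG4 (log2 fold change 1.65 ± 0.26). Etv3, a repressor induced by IL-10, read 3.17 and 5.56 RPKM in KL against 12.8 and 14.9 in KLG4 (1.69 ± 0.31). Bcl3, an atypical IκB protein, read 1.303 and 2.14 RPKM in KL against 4.21 and 5.42 in KLG4 (1.46 ± 0.35). Stat3 itself was at 9.55 and 13.1 RPKM in KL against 20.3 and 19.2 in KLG4 and Socs3, the feedback inhibitor of this pathway, at 57.8 and 29.7 RPKM in KL against 55.1 and 63.01 in KLG4, neither past the threshold.

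Genes that mark alveolar macrophages split. Of 34 tested, 9 rose and 0 fell, and the list median of 0.35 was little above that of all genes. With the nuclear copies left out 6 rose and 2 fell. Itgax, the integrin CD11c, read 67.2 and 81.3 RPKM in KL against 184 and 195 in KLG4 (log2 fold change 1.36 ± 0.16, limma adjusted p = 0.0406). Marco, a scavenger receptor for particles, read 180.2 and 149 RPKM in KL against 402 and 657 in KLG4 (1.65 ± 0.26). Slc7a2, the cationic amino acid carrier that supplies arginine, read 36.8 and 45.2 RPKM in KL against 107 and 93.9 in KLG4 (1.29 ± 0.17). Csf2rb and Csf2rb2, near-identical β chains of the GM-CSF receptor family whose reads can be split between them, both rose (1.22 and 1.43).

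Other identity genes did not rise. Siglecf, a sialic acid receptor by which alveolar macrophages are commonly recognized, read 22.95 and 25.5 RPKM in KL against 18.3 and 24.2 in KLG4. Fabp1, a fatty acid binding protein, read 153 and 154 RPKM in KL against 87.97 and 72.8 in KLG4 (log2 fold change -0.94), and Il18, a cytokine gene made by resting alveolar macrophages, 168 and 145 RPKM in KL against 88.8 and 104 in KLG4 (-0.70). Both were lower in both KLG4 libraries but under 2-fold when rescaled only outside genes named mt-. Ear1 and Ear2, near copies of each other that encode eosinophil-associated ribonucleases, had log2 fold changes of -0.67 and -0.28.

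Markers of monocyte-derived and interstitial macrophages numbered 16 tested, of which 5 rose (background 8.39%) and 0 fell (2.3%), with a median of 0.51. With the nuclear copies left out 4 rose and 1 fell (median 0.27), and without KL replicate 1, 7 rose and 1 fell (median 0.89). Ccr2, the chemokine receptor of inflammatory monocytes, read 0.886 and 1.14 RPKM in KL against 2.69 and 8.03 in KLG4 (log2 fold change 2.11 ± 0.55). Mmp12, macrophage elastase, read 17.7 and 13.3 RPKM in KL against 40.8 and 48.3 in KLG4 (1.53 ± 0.21), and Mmp14, a membrane collagenase, 2.63 and 2.63 RPKM in KL against 8.902 and 6.51 in KLG4 (1.498 ± 0.26). In the same libraries Cx3cr1, another monocyte receptor, read 6.698 and 3.96 RPKM in KL against 3.58 and 4.76 in KLG4, and C1qa, a complement gene high in interstitial macrophages, 16.9 and 15.1 RPKM in KL against 25.3 and 35.7 in KLG4, neither past the threshold. The summed level of the list was 545 and 499 RPKM in KL against 739.8 and 757 in KLG4, and its part in the other results was not tested.

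Receptors and bridges for the uptake of particles and dead cells formed the next group. Of 24 tested, 6 rose and 1 fell, and both KLG4 libraries exceeded both KL libraries for 19 of the 24 (background 43.4%). The list median was 0.63 (0.38 with the nuclear copies left out). It lay 0.38 above the median of all genes. With members set against genes of like length it was 0.22, and the median gene length of the list was 4802.5 bases. Lrp1, a large endocytic receptor for apoptotic cells, read 9.34 and 12.5 RPKM in KL against 37.4 and 36.9 in KLG4 (log2 fold change 1.77 ± 0.20, adjusted p = 0.0406). Mfge8, a secreted bridge between phosphatidylserine and integrins, read 9.27 and 9.31 RPKM in KL against 27.4 and 35.1 in KLG4 (1.73 ± 0.19, adjusted p = 0.0406). Marco, Mrc1, Mertk and Scarf1 were the others that rose, with Mertk, a receptor tyrosine kinase for dead cells, at 32.9 and 42.8 RPKM in KL against 85.5 and 71.7 in KLG4. Gas6, a ligand of Mertk and Axl, was the member that fell (2.17 and 1.32 RPKM in KL against 0.178 and 0.342 in KLG4).

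Of 36 lysosomal genes tested, 3 rose, a share like the background of 8.39%, and 0 fell. With the nuclear copies left out none of the 36 rose or fell, and the median was 0.22 against 0.46. Both KLG4 values were over both KL values for 30 of them (background 43.4%). Ctsl, cathepsin L, read 106 and 140.4 RPKM in KL against 337 and 247 in KLG4 (log2 fold change 1.24 ± 0.22), and Psap, the precursor of the saposins, 662 and 742 RPKM in KL against 1236 and 1138 in KLG4 (0.76). In the lipid-associated macrophage list, 3 of 15 rose, namely Itgax, Ctsl and Spp1, which encodes osteopontin (324 and 233 RPKM in KL against 641 and 996 in KLG4, 1.54 ± 0.27). Gpnmb, a lysosomal glycoprotein of the same state, read 79.6 and 102 RPKM in KL against 221 and 125 in KLG4, and Trem2, its lipid receptor, 17.05 and 14.4 RPKM in KL against 21.7 and 23.5 in KLG4, both under 2-fold. Among 15 complement genes, 3 rose and 0 fell (6 rose without KL replicate 1), with C4b at 15.7 and 13.6 RPKM in KL against 58.1 and 32.4 in KLG4 and Cfb, factor B, at 67.9 and 67.6 RPKM in KL against 190.0 and 124 in KLG4.

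Lipid genes did not move as a group. Of 27 genes of triacylglycerol synthesis and the lipid droplet, 3 rose and 2 fell around a median of 0.17 (5 and 1 without KL replicate 2, 1 and 2 without KLG4 replicate 1). Dgat1, which makes triacylglycerol from diacylglycerol, read 6.37 and 10.3 RPKM in KL against 25.1 and 17.9 in KLG4 (log2 fold change 1.38 ± 0.30). G0s2, an inhibitor of the lipase ATGL that is also abundant in neutrophils, read 27.9 and 21.3 RPKM in KL against 5.39 and 6.004 in KLG4 (-2.08 ± 0.21, adjusted p = 0.0356). Agpat2, an acyltransferase of the same pathway, fell from 1.84 and 4.07 to 1.17 and 0.409 RPKM. Plin2, the main droplet coat protein in these cells, was at 283 and 332 RPKM in KL against 355 and 313 in KLG4.

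Among 21 PPARγ and fatty acid uptake genes, 2 rose and 0 fell (4 rose without KL replicate 2, 1 without KLG4 replicate 1, and 1 with the nuclear copies left out). Abca1, the cholesterol exporter, read 0.834 and 0.988 RPKM in KL against 4.65 and 5.28 in KLG4 (log2 fold change 2.33 ± 0.31), and Slc27a1, a fatty acid transporter, 1.03 and 1.71 RPKM in KL against 3.32 and 2.78 in KLG4. Cd36, the oxidized lipid receptor, did not pass (39.97 and 57.98 RPKM in KL against 118 and 77.2 in KLG4, 0.99). Of 20 cholesterol genes 2 rose and none fell, with a median of 0.02. Elovl1, whose list had no increase without KLG4 replicate 2, was the 1 of 16 genes of fatty acid activation, desaturation and elongation that rose (1.77 and 3.45 RPKM in KL against 5.24 and 7.77 in KLG4), while the X-linked Acsl4, which activates polyunsaturated fatty acids for use in phospholipids, read 10.4 and 9.52 RPKM in KL against 15.7 and 14.8 in KLG4. Of 17 eicosanoid genes 3 rose, and none did without KLG4 replicate 2. One was Alox15, the 12/15-lipoxygenase, which had 0 reads in both KL libraries and 84 and 78 reads in KLG4. The others, Pla2g7 (40.6 and 32.9 RPKM in KL against 68.98 and 79.4 in KLG4) and Pla2g6 (0.971 and 1.14 RPKM in KL against 2.23 and 2.35 in KLG4), did not hold 2-fold under the second scaling.

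Genes that counter ferroptosis, and selenoproteins more widely, showed little besides Gpx4. Of 28 tested, 2 rose, 0 fell, and the median was 0.10 (-0.14 with the nuclear copies left out). None rose without KL replicate 1 or without KLG4 replicate 1, 1 rose without KLG4 replicate 2 and 3 without KL replicate 2. Slc3a2, the heavy chain of the cystine carrier, read 42.1 and 59.1 RPKM in KL against 134 and 89.4 in KLG4, and Txnrd3, a thioredoxin reductase, 1.46 and 2.63 RPKM in KL against 4.02 and 4.21 in KLG4, neither at 2-fold under the second scaling. Gpx1, the abundant soluble glutathione peroxidase, read 557 and 455 RPKM in KL against 425 and 578 in KLG4. Aifm2, which encodes the quinone reductase FSP1, read 17.6 and 24.99 RPKM in KL against 23.8 and 21.8 in KLG4, and Slc7a11, the light chain of the cystine carrier, 7.06 and 5.797 RPKM in KL against 8.66 and 9.71 in KLG4. Of 20 iron genes, 1 rose, the phagosomal transporter Slc11a1 (1.896 and 2.21 RPKM in KL against 5.09 and 3.51 in KLG4), and Fth1, ferritin heavy chain, read 5444 and 5325 RPKM in KL against 4944 and 4429 in KLG4. Of 27 NRF2 targets none rose or fell, with a median of -0.01, although 1 rose and 2 fell without KL replicate 2 and 1 fell when each KLG4 library was left out in turn. In the iron list 2 rose without KL replicate 2.

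All 15 MHC class II genes tested and all 20 of MHC class I and the immunoproteasome were short of the threshold, with medians of 0.15 and 0.40. Single libraries moved these results. Without KLG4 replicate 2, 6 of the 20 MHC class I genes rose and their median was 0.75, without KLG4 replicate 1 none did and it was 0.14, and without KL replicate 2, 2 of each list rose. H2-Ab1 read 2679 and 2747 RPKM in KL against 3476 and 3848 in KLG4, Cd74, the invariant chain, 2231 and 2217 RPKM in KL against 2272 and 2309 in KLG4, and H2-K1 402 and 507 RPKM in KL against 1138 and 594 in KLG4. Among checkpoint genes 4 of 16 rose and 0 fell, and 2 rose when either KLG4 library was left out. Cd274, which encodes PD-L1, read 70.2 and 77.6 RPKM in KL against 184 and 147 in KLG4 (log2 fold change 1.16 ± 0.17, short of 2-fold under the second scaling), and Tnfrsf14, the HVEM receptor, 0.199 and 0.416 RPKM in KL against 1.701 and 2.33 in KLG4. Btla, the partner of HVEM, was low at 0.672 and 0.407 RPKM in KL against 2.15 and 1.61 in KLG4. Tnfrsf14 and Btla were under 1 RPKM in both KL libraries and so passed the filter only through KLG4, where they were high. Abca1, Alox15 and Asns, named with other lists, did so as well. Both PD-1 ligands were thus higher in both KLG4 libraries.

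Of 45 interferon-response genes tested, 2 rose (background 8.39%) and 3 fell (2.3%), and the median was -0.13 against 0.24 for all genes (-0.37 with the nuclear copies left out, under which 1 rose and 6 fell). The KLG4 libraries differed here, with a summed level of 703 and 760 RPKM in KL against 859 and 506 in KLG4. Without KLG4 replicate 2 the median was 0.12, with 3 higher and 1 lower, and without KLG4 replicate 1 it was -0.37, with 0 higher and 6 lower. Without KL replicate 2, 5 rose and 4 fell. Isg15, a ubiquitin-like modifier, read 20.7 and 22.8 RPKM in KL against 11.03 and 7.84 in KLG4 (log2 fold change -1.22 ± 0.23). Ifit3, which binds viral RNA complexes, read 17.7 and 18.98 RPKM in KL against 8.66 and 7.59 in KLG4 (-1.17 ± 0.18), and Iigp1, an interferon-γ-induced GTPase, 11.4 and 13.9 RPKM in KL against 8.69 and 2.71 in KLG4 (-1.35 ± 0.53). Oasl1 and Lgals3bp rose (1.61 and 1.09). Cxcl9, a ligand of CXCR3 on T cells, read 29.8 and 44.8 RPKM in KL against 36.7 and 9.94 in KLG4 and did not pass.

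Inflammatory cytokines varied widely between replicates. Il1b read 1389.8 and 622 RPKM in KL against 612 and 854 in KLG4, and Tnf 111 and 23.4 RPKM in KL against 27.1 and 28.4 in KLG4, and neither passed. Of 32 genes of inflammatory cytokines and NF-κB feedback, 3 rose (Nfkb1, Bcl3 and Lif) and 0 fell, 3 rose and 5 fell without KL replicate 2, and 1 rose without KLG4 replicate 2. Of 27 chemokines and receptors 7 rose (background 8.39%) and 1 fell (2.3%), but 4 rose and 4 fell with the nuclear copies left out, 2 rose and 1 fell without KLG4 replicate 2, and 7 rose and 6 fell without KL replicate 2. The increases included Ccl24, Ccl17, Ccl22, Ccr2, Ccr7, the receptor that guides cells to lymph nodes (1.51 and 2.13 RPKM in KL against 4.099 and 5.82 in KLG4), and Cxcl16, the ligand of CXCR6 (27.7 and 25.4 RPKM in KL against 50.9 and 71.2 in KLG4). Cxcl15, a chemokine of lung epithelium, fell (4.87 and 3.17 RPKM in KL against 1.39 and 2.46 in KLG4). Cxcl2, a neutrophil chemokine, read 465 and 211 RPKM in KL against 274 and 316 in KLG4, and Ccl6, the most abundant chemokine transcript here, 4912 and 4667 RPKM in KL against 5390.4 and 5547 in KLG4. Of 9 Fc receptor genes none rose and 1 fell, the epithelial receptor Pigr, and of 18 Toll-like receptor genes 1 rose, Tlr7 (4.85 and 7.82 RPKM in KL against 13.7 and 13.1 in KLG4), which is X-linked and so cannot be told apart from the sex difference. No Toll-like receptor gene rose without KL replicate 1, and no Fc receptor gene fell without KLG4 replicate 1.

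Several genes with larger changes belonged to none of these lists. Rnase2a, a ribonuclease of the eosinophil-associated family with near copies, read 3.02 and 2.81 RPKM in KL against 39.4 and 68.6 in KLG4 (log2 fold change 4.11 ± 0.29, adjusted p = 0.014). Adam8, a membrane protease, read 1.37 and 2.23 RPKM in KL against 11.7 and 15.7 in KLG4 (2.89 ± 0.32, adjusted p = 0.0406). Inhba, which encodes the βA subunit of activin A, read 25.4 and 28.6 RPKM in KL against 249 and 119.7 in KLG4 (2.67 ± 0.35), higher in KLG4 replicate 1 than in replicate 2. Aldh1a2, which makes retinoic acid, read 0.712 and 1.81 RPKM in KL against 5.82 and 14.9 in KLG4 (2.92 ± 0.59). Vegfa, the angiogenic growth factor, read 17.1 and 21.6 RPKM in KL against 64.6 and 53.8 in KLG4 (1.61 ± 0.19, adjusted p = 0.0441). Vegfa, Hk1 and Hk2 were the 3 of 30 glycolysis and hypoxia genes that rose, a share near the background of 8.39%, and 0 fell. In that list 1 rose without KLG4 replicate 1, and 1 rose and 1 fell with the nuclear copies left out. Its median of 0.24 was close to that of all genes.

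Fn1, fibronectin, which macrophages make as well as fibroblasts, read 53.3 and 43.2 RPKM in KL against 151 and 297 in KLG4 (2.14 ± 0.33). Plec, the giant cytolinker plectin and a very long transcript, read 6.37 and 11.8 RPKM in KL against 48.8 and 41.1 in KLG4 (2.36 ± 0.31). Other large increases were Apol7d (2.31 and 6.11 RPKM in KL against 23.8 and 56.5 in KLG4), Mucl1 (12.9 and 3.19 RPKM in KL against 38.03 and 82.2 in KLG4), Tmeff1 (0.633 and 2.13 RPKM in KL against 7.61 and 11.6 in KLG4) and the X-linked Bex1 (1.94 and 2.23 RPKM in KL against 23.5 and 22.3 in KLG4) and Tceal7 (3.596 and 1.58 RPKM in KL against 14.7 and 12.03 in KLG4). Both X-linked genes cannot be told apart from the sex difference. Autosomal protein genes that passed an adjusted p of 0.05 with smaller increases were Crip1, a LIM-domain protein (6.26 and 9.72 RPKM in KL against 37.5 and 32.6 in KLG4), Anpep, aminopeptidase N (9.47 and 6.85 RPKM in KL against 30.8 and 26.6 in KLG4), Slamf7, an immune cell adhesion receptor (3.72 and 3.11 RPKM in KL against 12.2 and 11.9 in KLG4), Plxnd1, a semaphorin receptor (4.42 and 4.603 RPKM in KL against 14.2 and 20.2 in KLG4), Casc3, a core protein of the exon junction complex (9.96 and 12.5 RPKM in KL against 33.6 and 36.3 in KLG4), and Paxbp1 (5.52 and 4.96 RPKM in KL against 16.4 and 14.8 in KLG4). None of them passed with the nuclear copies left out (limma adjusted p from 0.0571 for Crip1 and Casc3 to 0.0924 for Anpep). They also did not pass when autosomal genes were tested alone.

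Housekeeping programs did not move together. None of 67 nuclear genes of the respiratory chain and none of 76 cytosolic ribosomal protein genes rose or fell, with medians of -0.04 and -0.17, while all 15 mitochondrially encoded genes fell (median -2.11), from mt-Atp6 at 50.4 and 53.1 RPKM in KL against 18.7 and 17.1 in KLG4 to mt-Nd3 at 206 and 178 RPKM in KL against 16.8 and 29.1 in KLG4. Both KLG4 libraries were below both KL libraries for 53 of the 76 ribosomal genes (background 14.5%). In the integrated stress and unfolded protein list, 7 of 29 rose and 0 fell, 2 of them also under the second scaling, and 2 rose without KL replicate 1, 1 without KLG4 replicate 1 and 4 without KLG4 replicate 2. Asns, asparagine synthetase, read 0.421 and 0.4404 RPKM in KL against 1.63 and 2.04 in KLG4, and Slc7a5, a large amino acid carrier, 2.17 and 1.04 RPKM in KL against 4.49 and 3.95 in KLG4. Hspa5, the chaperone BiP, read 171 and 219 RPKM in KL against 380.3 and 315 in KLG4 and did not reach 2-fold.

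Of 41 cell cycle and DNA replication genes 4 rose, a share near the background of 8.39%, and 0 fell. With the nuclear copies left out 1 rose and 1 fell, and leaving out a library gave 1 (without KLG4 replicate 2) to 8 (without KL replicate 2) that rose. The list had both KLG4 values over both KL values for 26 (background 43.4%). Mki67, the proliferation antigen Ki-67, read 32.9 and 29.2 RPKM in KL against 56.4 and 63.5 in KLG4 (log2 fold change 0.95 ± 0.16), short of 2-fold, and Cdc45, a replication fork factor, rose (2.15 and 3.74 RPKM in KL against 7.45 and 6.42 in KLG4). Among 24 immediate early genes 3 rose and 1 fell (1 rose without KL replicate 1, 5 without KLG4 replicate 2). Jund read 21.3 and 13.9 RPKM in KL against 43.2 and 55.1 in KLG4, while Egr1 read 21.7 and 9.29 RPKM in KL against 6.17 and 5.64 in KLG4. Of 17 heat shock chaperones, Hspa1a and Hspa1b rose, near copies of each other, and neither held under the second scaling or without KLG4 replicate 2. Of 17 genes of the STK11 complex and AMPK, Sik1, a kinase downstream of STK11, was the 1 that rose (2.298 and 2.91 RPKM in KL against 8.42 and 6.92 in KLG4), with 3 higher without KL replicate 2 and 2 without KLG4 replicate 2.

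Among the genes named here as having risen, these did not hold 2-fold and the p threshold with the nuclear copies left out: Arid3a, Cbarp, Ccl22, Cd274, Cfb, Chil3, Csf2rb, Ctsl, Cxcl16, Hk1, Hk2, Hspa1a, Hspa1b, Il4ra, Irf4, Lgals3bp, Lif, Mertk, Nfkb1, Pla2g6, Pla2g7, Slc11a1, Slc27a1, Slc3a2, Tlr7 and Txnrd3. That threshold is unadjusted. Sbno2, Ccl24, Itgax, Lrp1, Mfge8, Adam8 and Vegfa held it, but their limma adjusted p-values under that scaling were 0.0571 to 0.0743, no longer under 0.05. Among the decreases, Myh14 was at 0.0571 there.

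**Figure D3:**
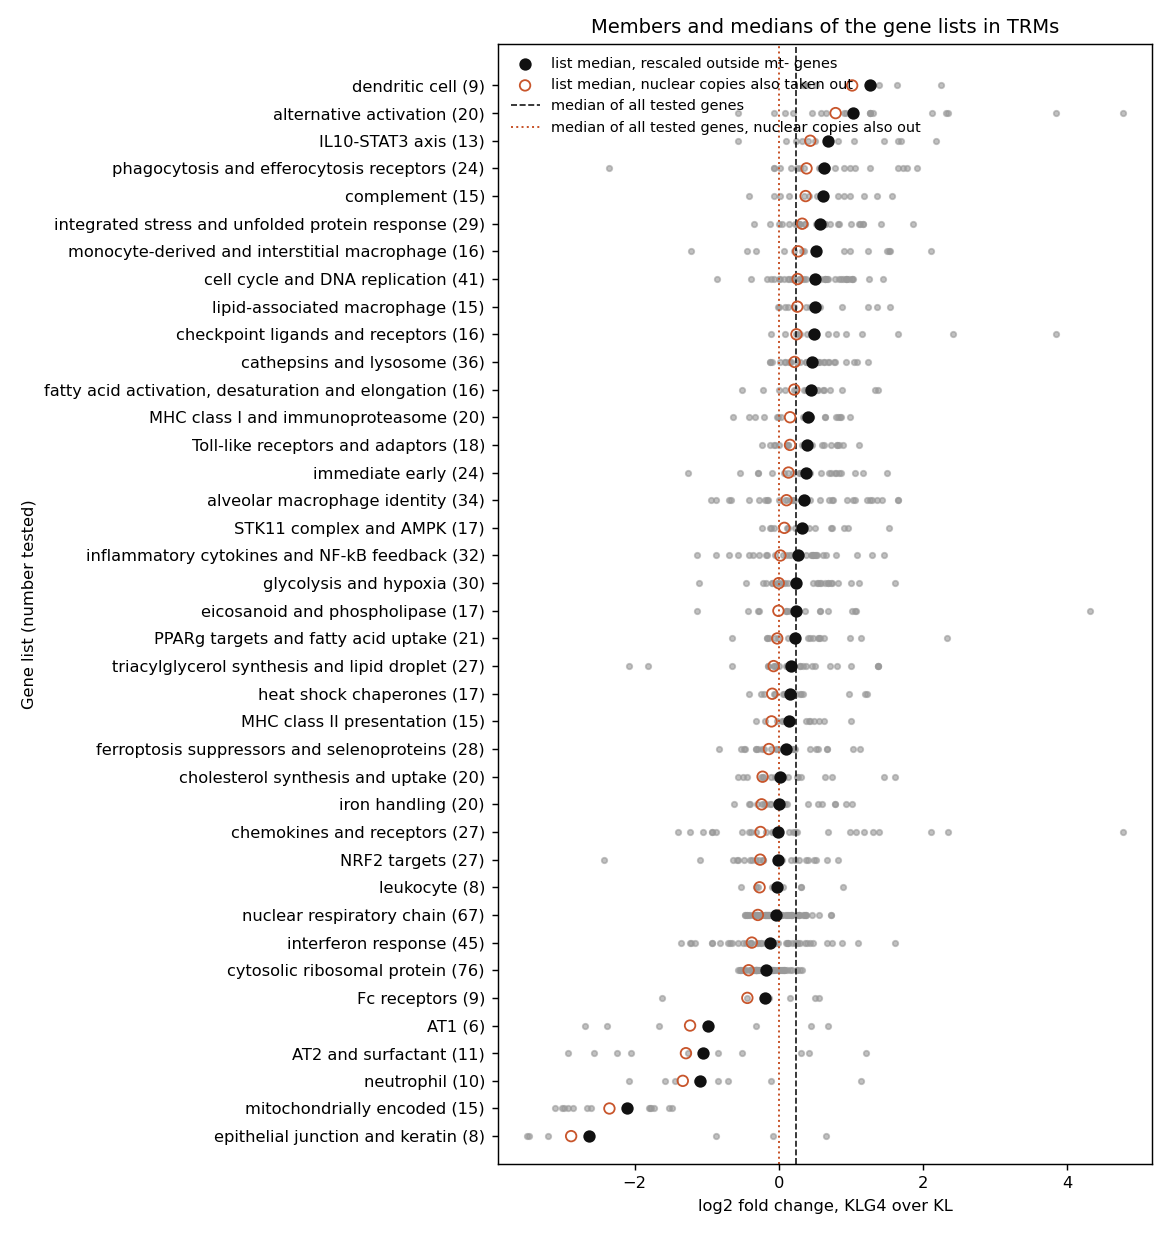
Log2 fold change of KLG4 over KL in TRMs for each tested member (grey) of the lists with at least 5 tested genes, sex-linked lists left out, with list medians under the rescaling outside genes named mt- (filled) and with the nuclear copies also left out (open). The dashed and dotted lines give the medians of all tested genes, 0.24 and 0.00, and the list medians run from -2.64 for epithelial junctions and keratins to 1.26 for dendritic cell markers.

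The marker lists of lung epithelium held 16 of the 253 decreases. Over 5 lists of alveolar type 2 (AT2), alveolar type 1 (AT1), club, ciliated and general epithelial markers, 57 genes in all, 41 had values and 31 were tested, of which those 16 fell and 1 rose (background 2.3% and 8.39%). Their summed level was 513 and 555 RPKM in KL against 229 and 311 in KLG4, with no overlap. Krt8 and Krt18, the keratin pair of simple epithelium, read 34.3 and 36.6 RPKM in KL against 2.04 and 6.81 in KLG4 and 37.5 and 34.7 RPKM in KL against 1.19 and 8.16 in KLG4. Their log2 fold changes were -3.21 ± 0.53 and -3.47 ± 0.82, and KLG4 replicate 1 was lowest for both.

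Surfactant genes followed the same order. Sftpc, the surfactant protein that defines AT2 cells, read 100.3 and 117 RPKM in KL against 16.6 and 41.4 in KLG4, Sftpb 31.9 and 20.9 RPKM in KL against 1.89 and 5.76 in KLG4, and Sftpd 27.3 and 31.4 RPKM in KL against 4.17 and 5.72 in KLG4 (log2 fold change -2.56 ± 0.23, adjusted p = 0.0304). Aqp5 and Ager, an AT1 water channel and receptor, read 5.53 and 7.37 RPKM in KL against 0.545 and 1.46 in KLG4 and 16.03 and 10.8 RPKM in KL against 3.34 and 5.01 in KLG4. Scgb3a1, a secretoglobin of airway secretory cells, read 5.78 and 8.86 RPKM in KL against 0.507 and 0.291 in KLG4 (-3.90 ± 0.42, adjusted p = 0.0392), and Scgb1a1, the club cell secretoglobin, 22.3 and 50.6 RPKM in KL against 15.3 and 19.04 in KLG4, just short of 2-fold. Epcam, the surface antigen of epithelium, did not follow (19.2 and 21.4 RPKM in KL against 13.3 and 27.8 in KLG4), nor did Cdh1, E-cadherin, which alveolar macrophages express as well (19.4 and 28.8 RPKM in KL against 33.8 and 40.9 in KLG4).

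Other large decreases were S100a14 (17.3 and 6.14 RPKM in KL against 0.439 and 1.41 in KLG4), the periplakin gene Ppl (7.28 and 4.53 RPKM in KL against 0.314 and 0.972 in KLG4), the non-muscle myosin gene Myh14 (10.8 and 8.05 RPKM in KL against 0.719 and 1.27 in KLG4, adjusted p = 0.0406) and the glycolipid-anchored neuritin gene Nrn1 (5.9999 and 12.004 RPKM in KL against 0.472 and 0.395 in KLG4, adjusted p = 0.0392). Igfbp7 (6.48 and 4.58 RPKM in KL against 0.188 and 0.721 in KLG4) and Mgp, matrix Gla protein (10.9 and 13.8 RPKM in KL against 1.47 and 2.06 in KLG4), are made by stromal and vessel cells. Cald1, the actin regulator caldesmon, read 7.63 and 9.17 RPKM in KL against 2.17 and 2.25 in KLG4, and Ctla2a, a cysteine protease inhibitor, 16.02 and 19.1 RPKM in KL against 2.81 and 4.44 in KLG4. Mhrt, a noncoding RNA antisense to a heart myosin gene, read 23.8 and 11.2 RPKM in KL against 0.343 and 4.95 in KLG4 and varied widely, and without strand its reads and those of the myosin gene cannot be told apart. Gimap4, a lymphocyte GTPase, read 3.76 and 6.43 RPKM in KL against 0.495 and 0.569 in KLG4. Stfa2 (6.53 and 3.99 RPKM in KL against 0.179 and 0 in KLG4), a stefin with near copies, and Phgr1 (8.42 and 2.202 RPKM in KL against 0.139 and 0 in KLG4) were close to 0 in KLG4.

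Markers of other immune cells moved too. Of 10 neutrophil genes tested, 5 fell (background 2.3%) and 1 rose (8.39%), 2 fell without KL replicate 1, and their summed level was 309 and 194 RPKM in KL against 128 and 101 in KLG4. S100a9, a calcium-binding protein of neutrophils, read 219.5 and 128 RPKM in KL against 95.3 and 63.4 in KLG4, and Csf3r, the G-CSF receptor, 4.63 and 2.74 RPKM in KL against 1.96 and 1.38 in KLG4. Of 9 dendritic cell genes tested, 5 rose (background 8.39%) and 0 fell (2.3%), 3 rose with the nuclear copies left out and 2 without KLG4 replicate 2, and their summed level was 18.5 and 28.8 RPKM in KL against 49.8 and 61.5 in KLG4. Itgae, the integrin CD103, read 0.955 and 3.76 RPKM in KL against 10.6 and 8.56 in KLG4, Batf3, a factor of conventional dendritic cells, 6.92 and 7.84 RPKM in KL against 17.2 and 18.4 in KLG4, and Clec9a, which defines their cross-presenting subset, 2.24 and 3.37 RPKM in KL against 3.302 and 3.76 in KLG4. Ccr7 and Ccl22 count in that list as well as among the chemokines, and the part of dendritic cell transcripts in the chemokine and alternative activation results was not tested.

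T cells, endothelium and muscle left low levels. The T cell list had values for 3 of 16 genes, 2 of them tested with none past the threshold, and its sum of 70.01 and 80.8 RPKM in KL against 54.7 and 57.03 in KLG4 was almost all Cd2, a gene that alveolar macrophages express. Endothelial markers summed to 28.6 and 29.6 RPKM in KL against 22.3 and 27.7 in KLG4, with 0 of 4 past the threshold. Of 3 fibroblast and collagen genes tested, Mgp and Sparc fell while Fn1 rose, so that their sum of 72.8 and 70.3 RPKM in KL against 155 and 303 in KLG4 followed Fn1. The smooth and cardiac muscle list (3 tested, 1 fell), the B and plasma cell list (3 tested, 1 fell and 1 rose), and the erythroid and platelet list (3 tested, 1 fell) held still lower sums. The general leukocyte list summed to 637 and 678 RPKM in KL against 620.3 and 614 in KLG4, with 0 of 8 past the threshold.

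**Figure D4:**
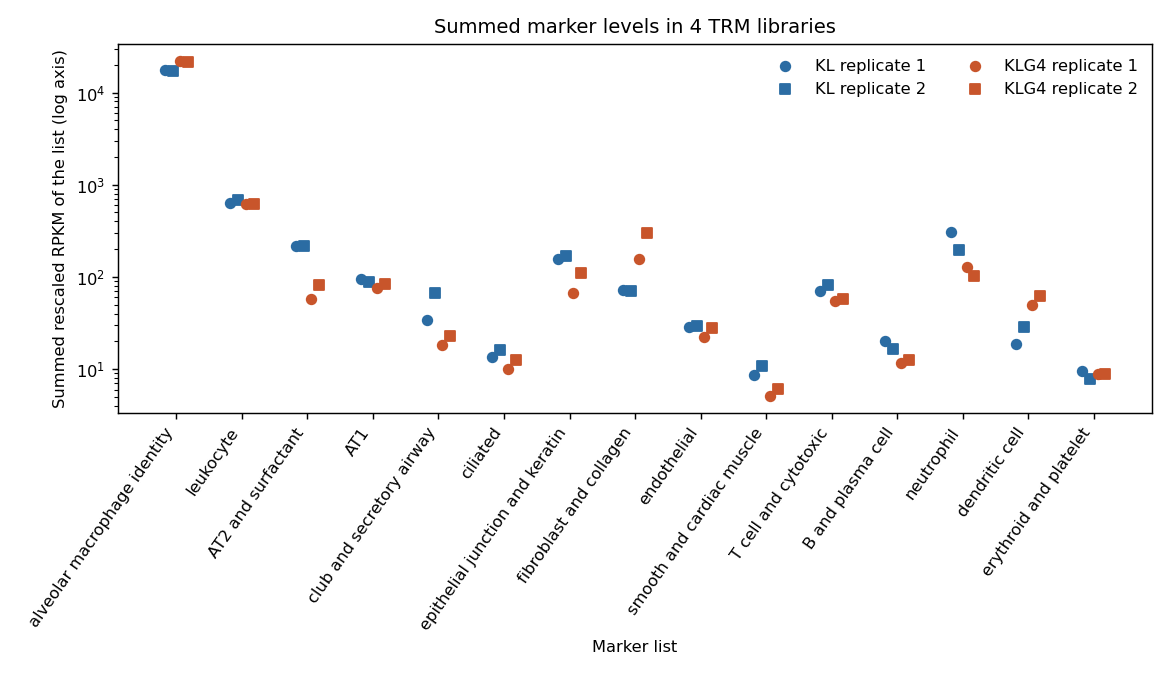
Summed rescaled RPKM on a log axis of the alveolar macrophage list and the 14 lists of other cell types in the 4 TRM libraries (KL in blue, KLG4 in orange). The monocyte-derived and interstitial macrophage list is not drawn. The alveolar macrophage list summed to 17624 and 17158 RPKM in KL against 22138 and 21477 in KLG4, far above every other list drawn, and the AT2 list to 214 and 215 RPKM in KL against 57.6 and 81.98 in KLG4.

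TRMs were set beside monocyte-derived macrophages from the same genotypes. The KL libraries of the MDM table differed from each other in Xist, at 22.1 and 0.868 RPKM against 19.5 and 19.6 in KLG4, so sex was mixed within KL MDMs but split by genotype in TRMs, and its part in the comparison was not tested. The difference between the TRM and MDM effects was tested in limma as an interaction for 9281 genes measured in both, and none passed an adjusted p of 0.05, with a smallest adjusted p of 0.246 and 889 genes at an unadjusted p under 0.05. Nothing is therefore called particular to TRMs. The 18 alternative activation genes tested in both had a median log2 fold change of 0.98 in TRMs and 0.40 in MDMs, and the TRM effect was the larger for 15 of them, against 75.2% of all genes, 7 at an unadjusted p under 0.05 in either direction, against 9.58%. All 9281 genes had medians of 0.25 in TRMs and -0.02 in MDMs. With the nuclear copies left out these were 0.00 and -0.06, and the TRM effect was the larger for 13 of the 18 and 59.0% of all genes, with 3 of the 18 and 6.83% of all genes at an unadjusted p under 0.05. Ccl24 read 5.48 and 7.7004 RPKM in KL against 37.2 and 32.6 in KLG4 in MDMs, so it was higher in both KLG4 MDM libraries as well. Ccl17 read 23.3 and 8.15 RPKM in KL against 15.1 and 31.98 in KLG4 there, with overlapping groups, and Mrc1 7.68 and 34.97 RPKM in KL against 15.5 and 14.1 in KLG4.

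Sbno2 read 70.2 and 70.2 RPKM in KL against 349 and 335 in KLG4 in MDMs, an effect of 2.28 against 2.18 in TRMs (limma adjusted p of the difference = 0.925). Stk11 read 63.1 and 75.1 RPKM in KL against 204 and 178 in KLG4, an effect of 1.47 against 0.73 (adjusted p of the difference = 0.464). For Gpx4 the difference was -1.56 (adjusted p = 0.339). The 29 epithelial genes tested in both had a median of -1.05 in TRMs and -1.56 in MDMs. Krt8 read 23.8 and 92.6 RPKM in KL against 2.18 and 17.1 in KLG4 in MDMs. Scgb3a1 differed more between the populations, with effects of -3.90 and -0.65 (adjusted p of the difference = 0.323).

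**Figure D5:**
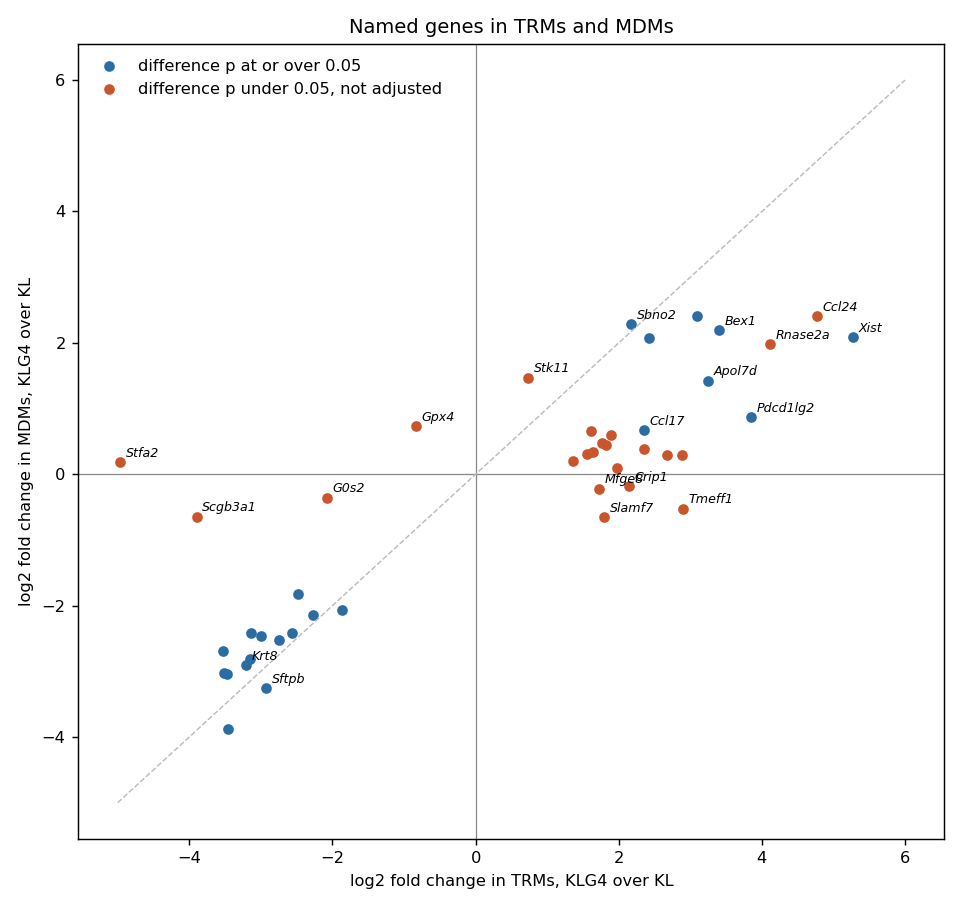
Log2 fold change of KLG4 over KL in TRMs (x) and MDMs (y) for the named genes measured in both, with the line of equal effects dashed. Krt8 (-3.21 and -2.91) lies near that line, Ccl24, Mfge8 and Crip1 lie below it and Gpx4 and Scgb3a1 (-3.90 and -0.65) above it, and orange points have an unadjusted p under 0.05 for the difference.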

How the data were processed

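Per the labels and the study's methods, poly(A) RNA was sequenced from paired-end, unstranded libraries, trimmed with Trim Galore 0.6.4, aligned with HISAT2 2.0.5 and counted with featureCounts 2.0.0 (GRCm38). The authors deposited RPKM per gene and library in 1 table per population. Columns of the authors' own fold changes and p-values were not used. Values of genes with a length converted to whole reads (100% within 0.05 of a whole number), 1 read being worth the step set by gene length and depth. RPKM values were rescaled to the reads outside genes named mt-, genes reaching 1 RPKM in 2 or more libraries were kept, and log2(RPKM + 0.1) was fitted with limma 3.58.1 (trend, two-sided, R 4.3.3) with Benjamini-Hochberg adjustment and no covariates. TRM and MDM effects were compared by an interaction term. The fit was tested on simulated data. Named genes were those with an adjusted p under 0.05, the 15 largest increases and 15 largest decreases at the threshold of the study with separate groups and a mean of at least 5 RPKM (predicted, clone, small RNA and mt- genes left out), the genes lying up to 250 kb from Gpx4, and list members. Some genes that met these rules are not reported here by name, but they stay in the counts and medians. Genes and lists were chosen with earlier results of these data known. Positions are from GENCODE vM21 (GRCm38). Alternatives covered the pseudocount, filter, scaling, test, block, each library and sex-linked genes.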

Additional observations from a re-analysis of the deposited data

Results flagged for a closer look

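Among the genes named above, 3 lay apart in opposite directions in both macrophage populations, with every KLG4 library on one side of every KL library. Gpx4 was lower in KLG4 TRMs and higher in KLG4 MDMs, with effects of -0.83 and 0.73 on the log2 scale and a difference of -1.56 (limma adjusted p = 0.339). Crip1 was higher in KLG4 TRMs and lower in KLG4 MDMs (2.15 and -0.18), a difference of 2.33 (adjusted p = 0.246). Mfge8 did the same (1.73 and -0.22), a difference of 1.95 (adjusted p = 0.246). None of these differences passed the adjusted threshold, and their cause was not tested.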

How the results depend on the processing

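Counts of genes and the medians of lists near 0 depended on the processing, and the cause was not tested where none is given. For the 66 genes with an adjusted p under 0.05, the count was 172 with a pseudocount of 1, 263 with a mean of at least 5 RPKM, 198 as deposited, 31 with the nuclear copies left out, 30 with TMM scaling, 10 without the trend, 0 among autosomal genes alone, where 2396 had an unadjusted p under 0.05, and 754 with limma-voom. Same-numbered libraries did not deviate together (r = -0.06 over 10990 genes), and with the replicate number as a block it was 166, and leaving out each library in turn gave 31 to 1008, the highest without KL replicate 2. The 922 increases at the threshold of the study became 550 (pseudocount 1), 391 (mean of at least 5 RPKM, fewer genes tested), 481 (nuclear copies left out), 447 (quantile), 480 (TMM) and 446 (limma-voom), and 621 to 1821 with a library left out, again highest without KL replicate 2. The 253 decreases became 99 (mean of at least 5 RPKM), 459 (no filter), 401 (nuclear copies left out), 439 (quantile) and 401 (TMM). Of the increases and decreases together, 78.5% were increases, against 54.5% with the nuclear copies left out and 50.5% with quantile scaling. The 11 alternative activation genes that rose became 7 (nuclear copies left out), 7 (TMM) and 6 (limma-voom), and the 16 epithelial genes that fell became 8 with a mean of at least 5 RPKM. The 889 genes at an unadjusted p under 0.05 for TRMs against MDMs became 382 to 2505 with a library left out, the highest without MDM KL replicate 1, when 609 genes passed the adjusted threshold. Without TRM KL replicate 2, 20 did, and without MDM KL replicate 2, 2 did. The scaling of that test outside the nuclear copies was added after seeing the data and gave 634. Of 143 list members and neighbours of Gpx4 at the threshold of the study, 93 higher and 50 lower, 49 and 50 kept their call with the nuclear copies left out, 50 and 49 with limma-voom, 68 and 44 with a pseudocount of 1, and 61 to 89 and 43 to 47 with a library left out. Over a set of 50 genes chosen for large changes, namely the 15 largest changes each way and the genes with an adjusted p under 0.05, both without predicted, clone, microRNA, snoRNA and mt- genes, and Gpx4, Stk11 and Sbno2, and 16 alternatives, 777 of the values kept their direction and side of the threshold, 1 (Mhrt without KL replicate 1) fell short of it and 3 (Gpx4 with the nuclear copies left out, TMM and limma-voom) passed it. KLG4 replicate 1 was the deepest library, and genes under 1 RPKM in most libraries were not tested, so differences among them were not detectable here.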
